A study of Mus musculus with 24 samples.

Results

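Keratin genes were taken as every gene of the expression table whose symbol is Krt followed by a number and at most 1 letter, which gave 55 of the 25239 genes in the table. By symbol number, 27 of these were classed as type I keratins, 27 as type II keratins and 1, Krt222, as a related gene outside both classes. Krt74, counted in type II, is annotated in mouse as a transcribed pseudogene. The samples were 24 RNA-seq libraries from 6 mouse small cell lung cancer (SCLC) cell lines, 3 of Type D (D1, D2 and D3) and 3 of Type V (V1, V2 and V3, numbered by replicate as in Type D), each treated in 4 ways for 72 h. According to the study, each line was grown from a lung tumor in which Cre had deleted Rb1 and Rbl2 and had switched the Trp53 XTR allele to its trapped, non-expressing form. All groups, Control included, therefore share these lesions and carry FlpO-ER, a tamoxifen-dependent recombinase. Control cells received vehicle (ethanol), Restored cells received 4-hydroxytamoxifen (4-OHT), which turns the Trp53 allele back on, and CsA is cyclosporin A, an inhibitor of cyclophilins, given alone (Control + CsA) or with 4-OHT (Restored + CsA). Type D lines die and Type V lines stay viable after p53 restoration in the study's assays. This gave 8 groups of 3 libraries, in which each library stands for 1 tumor-derived line. The mouse that each line came from was not given in the labels.

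Keratins are the intermediate filament proteins of epithelial cells. A filament is built from pairs of 1 type I (acidic) and 1 type II (basic) chain, so a cell needs at least 1 keratin of each class, and chains without a partner are degraded. Krt8 and Krt18 form the basic pair of single-layered (simple) epithelia such as the lung lining, with Krt7 and Krt19 as frequent partners, while Krt5 and Krt14 mark basal cells, Krt6 and Krt16 appear in injured or hyperproliferative epithelium, and another large set is restricted to hair and its root sheath.

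Values were the deposited TPM values, a unit of transcript abundance per length in which each library sums to 1000000, so levels can be compared between genes within a library. Differences are given on the scale of log2(TPM + 1) with the SE of the limma fit. A gene was tested if it reached 1 TPM in at least 3 libraries, and it was called if its Benjamini-Hochberg adjusted p was under 0.05 over all 14104 tested genes and its difference was at least 1. Trp53 lay at 10.5 to 15.3 TPM in the 12 unrestored libraries and at 182 to 253 TPM in the 12 restored libraries, so each library matched its label on this gene. The labelled cell type was checked on 10 neuroendocrine genes, of which Neurod1, Chga, Chgb, Calca and Dll3 stayed below 1 TPM in every library. Summed over the list, neuroendocrine genes reached 5.65 to 27.2 TPM in Type D and 16.4 to 85.9 TPM in Type V. Among 8 fibroblast genes 6 stayed below 1 TPM in every Type D library, against 2 in Type V, with sums of 167 to 1829 TPM in Type D and 641 to 3215 TPM in Type V. Of the immune genes, Ptprc, Adgre1 and Cd3e stayed below 1 TPM in every library, as did all 4 endothelial genes. Cd68, a lysosomal gene of macrophages that other cells also express, lay at 5.60 to 55.3 TPM and rose with restoration in Type D (1.95, adjusted p = 0.000134) and in Type V (1.28, adjusted p = 0.00766), and Csf1r reached at most 1.53 TPM. The part of these markers in the keratin differences was not tested.

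Of the 55 keratin genes, 54 had a position in the GENCODE annotation of mouse build GRCm38. They lay in the 2 known keratin clusters, 27 of them on chromosome 11 between 99232761 and 100269871 and 27 on chromosome 15 between 101347444 and 102032027. Krt18 (102028180 to 102032027, plus strand) is the type I gene that sits beside the type II genes on chromosome 15, 23697 bases from Krt8 (101996698 to 102004482, minus strand), the type II chain it pairs with. The build behind the expression table was not certain, and these positions were used for description alone.

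RefSeq promoter windows (250 bases before to 50 bases after the start, build GRCm38.p6) were found for 36 of the 55 genes, in 37 windows. Those of 4 genes on which the results below turn are printed 5′ to 3′: Krt8 (chr15:102004293-102004592, minus strand) and its neighbour Krt18 (chr15:102027966-102028265, plus strand), the most abundant pair, Krt23 (chr11:99493071-99493370, minus strand), with a clear difference between the types, and Krt5 (chr15:101712856-101713155, minus strand), which rose with restoration in Type D. Capitals mark matches, on either strand, to a TATA box (the letters TATAAA), an AP-1 motif or the p53 half-site.
Krt8: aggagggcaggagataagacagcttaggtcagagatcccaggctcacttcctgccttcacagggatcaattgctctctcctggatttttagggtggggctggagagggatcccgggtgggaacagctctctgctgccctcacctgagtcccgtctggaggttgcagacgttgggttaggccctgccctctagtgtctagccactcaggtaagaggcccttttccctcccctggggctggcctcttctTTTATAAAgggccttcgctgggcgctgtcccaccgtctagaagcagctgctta
Krt18: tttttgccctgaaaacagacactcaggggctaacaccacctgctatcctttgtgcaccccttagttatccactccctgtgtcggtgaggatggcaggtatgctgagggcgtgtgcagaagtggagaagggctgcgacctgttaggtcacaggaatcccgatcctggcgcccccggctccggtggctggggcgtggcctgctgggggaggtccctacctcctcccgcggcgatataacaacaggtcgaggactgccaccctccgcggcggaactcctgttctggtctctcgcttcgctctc
Krt23: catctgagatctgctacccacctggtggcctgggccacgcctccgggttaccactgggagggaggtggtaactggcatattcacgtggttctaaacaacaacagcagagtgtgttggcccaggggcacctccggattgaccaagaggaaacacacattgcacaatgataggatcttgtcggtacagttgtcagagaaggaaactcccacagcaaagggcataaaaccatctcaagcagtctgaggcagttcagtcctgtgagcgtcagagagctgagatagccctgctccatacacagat
Krt5: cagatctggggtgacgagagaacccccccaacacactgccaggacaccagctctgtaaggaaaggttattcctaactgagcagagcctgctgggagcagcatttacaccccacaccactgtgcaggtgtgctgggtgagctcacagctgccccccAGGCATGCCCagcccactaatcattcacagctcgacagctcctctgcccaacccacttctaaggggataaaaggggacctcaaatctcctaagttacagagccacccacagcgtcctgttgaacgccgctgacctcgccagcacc
The capitals in Krt8 are 2 overlapping TATA box matches on opposite strands, and those in Krt5 are a match to the p53 half-site. Krt18 and Krt23 held no match to these or to the other motifs searched, which were a GC box and a CAAT box. A TATA box match was found in 51.4% of the keratin windows and in 13.6% of all 32544 mouse windows, while the letters of a GC box, GGGCGG, were found in 5.41% against 35.9%. The p53 half-site matched in 8.11% of keratin windows and 8.36% of all windows, and the AP-1 motif, spelled TGANTCA, in 5.41% of keratin windows and 7.79% of all. A CAAT box, spelled CCAAT, matched in 40.5% and 37.4%. Both strands were searched, and no motif here contains another. These matches describe letters in the windows only.

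Of the 55 keratin genes, 24 passed the filter and 31 did not, and the highest value of any gene that did not pass was 1.27 TPM (Krt88). The genes Krt25, Krt26, Krt27, Krt34, Krt74 and Krt81 were listed at 0 in all 24 libraries. By family, 5 of 5 simple-epithelial keratins, 11 of 17 basal and stratified keratins, 2 of 6 injury and appendage keratins and 6 of 25 hair and root sheath keratins passed, and neither Krt88 nor Krt222, which are in no family list, did. A mean of at least 10 TPM in any group was reached by 10 genes and a mean of at least 100 TPM by 6, namely Krt8, Krt18, Krt19, Krt7, Krt20 and Krt23. Most of the keratin family was therefore near or at 0 in these lines, and the signal sat in the simple-epithelial set.

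**Figure D1:**
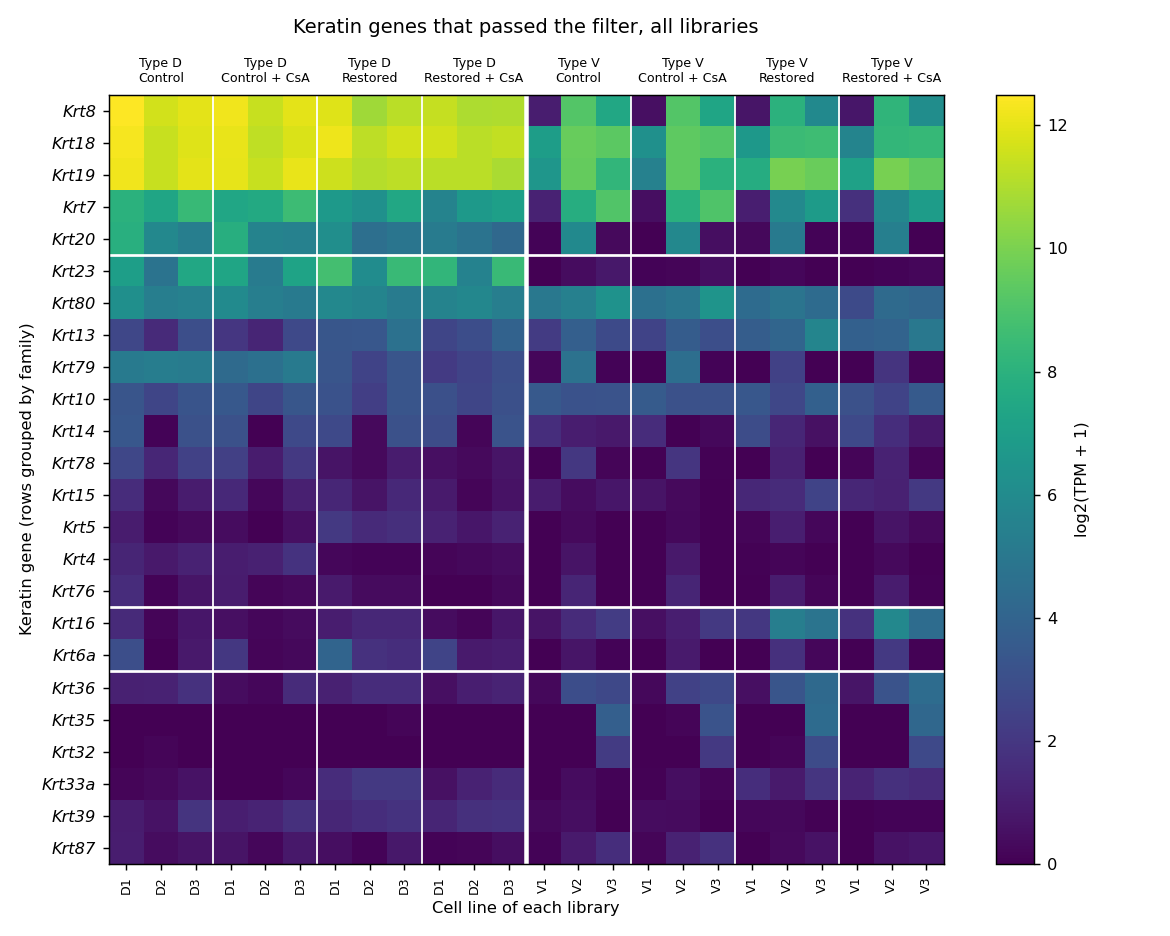
Levels as log2(TPM + 1) of the 24 keratin genes that passed the filter (rows, grouped from top to bottom as simple, basal and stratified, injury and appendage, hair and root sheath) in the 24 libraries (columns, by group and cell line). Krt8, Krt18 and Krt19 form the bright block in Type D, Krt23 is below 1 TPM in all Type V libraries, and Krt35 and Krt32 stand out in V3 alone.

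Values below run in the order D1, D2 and D3 for Type D and V1, V2 and V3 for Type V. The summed keratin level was 16490, 9208 and 12550 TPM in Type D Control, or 0.921 to 1.65% of all transcripts. In Type V Control it was 269, 2468 and 1806 TPM, or 0.0269 to 0.247%. No Type V library reached any Type D library on this sum in any treatment, since the lowest Type D sum was 6605 TPM and the highest Type V sum 2468 TPM. In Type D, Krt8, Krt18 and Krt19 together made up 91.8 to 96.4% of the keratin sum in every library. They ranked between position 5 and 44 among all genes of the library. In Type V the same 3 genes made up 59.7 to 88.6%. Vim, the intermediate filament gene of mesenchymal cells, lay at 2365 to 5360 TPM in all 24 libraries, so both types carried it beside their keratins. In bulk RNA, fewer cells with a transcript and less transcript per cell cannot be told apart.

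Before restoration, Krt18 and Krt19 were called higher in Type D lines, and Krt8 showed a larger but more variable difference. Krt18, the type I chain of the basic simple pair, measured 5115, 2797 and 3815 TPM in Type D Control compared with 123, 762 and 656 TPM in Type V Control. Krt19, a type I chain of ducts and airways, was at 4802, 2827 and 4000 TPM against 93.7, 748 and 297 TPM. For both genes every Type D library lay above every Type V library. The difference was 3.26 (SE 0.82, adjusted p = 0.012) for Krt18 and 3.78 (SE 0.85, adjusted p = 0.00581) for Krt19. Krt8, the type II partner, measured 5797, 3252 and 4055 TPM in Type D Control compared with 0.974, 567 and 179 TPM in Type V Control. Its groups did not overlap either and its difference was the largest of the 3 genes at 6.18 (SE 2.22), yet it was not called (adjusted p = 0.0737), as the Type V lines spread widely, from below 1 TPM in V1 to 567 TPM in V2. Krt8 was called when V1 was left out (3.73, SE 0.71, adjusted p = 0.00295) and when cell line was fitted as a random effect (adjusted p = 0.00214). The random effect used 1 correlation, 0.736, for all genes. Krt8 varied more between the Type V lines than within them, so the latter adjusted p can be too small. This limit applies to every type comparison given with the random effect. Part of the Krt8 signal is uncertain, since 22.0% of the 75-base windows of its transcripts also occur in the pseudogene Krt8-ps. Krt18 and Krt19 have no such shared window.

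**Figure D2:**
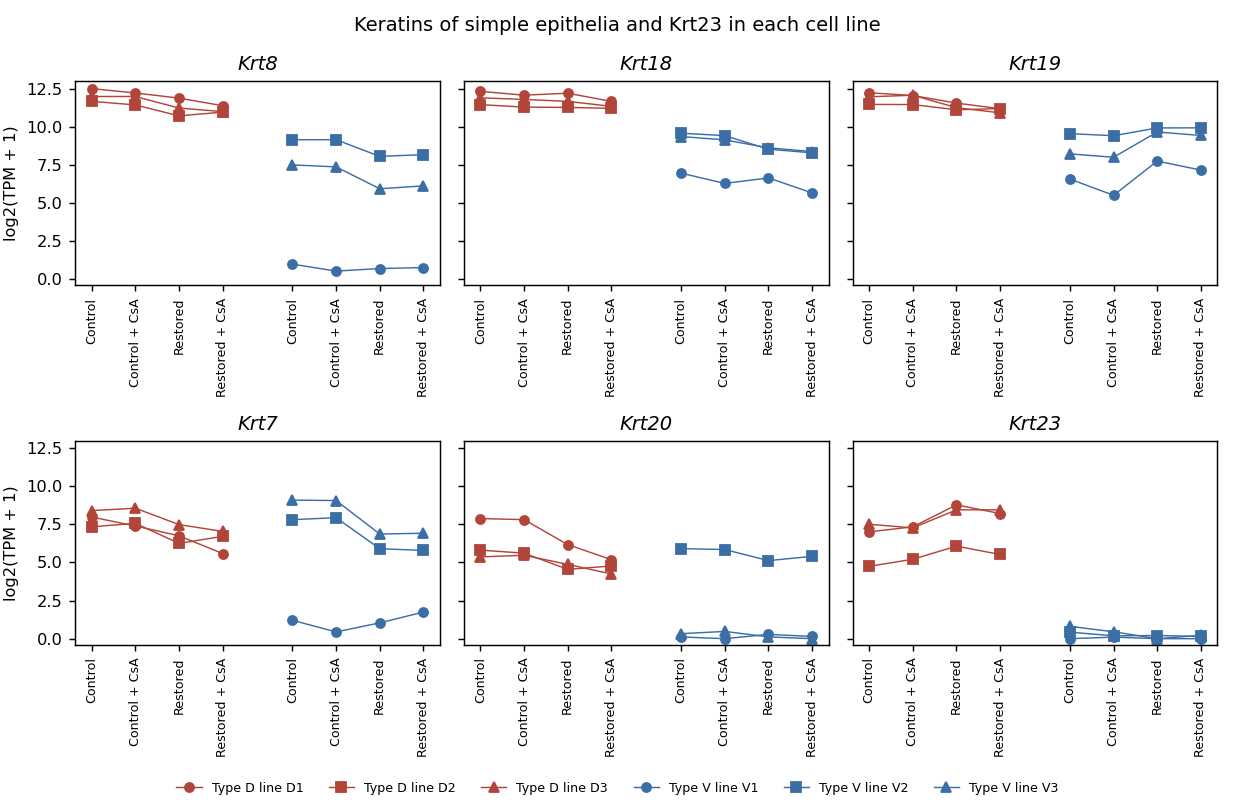
Level as log2(TPM + 1) of 6 keratins in each library, with 1 line per cell line across the 4 treatments (red, Type D; blue, Type V). Krt8 (not called), Krt18, Krt19 and Krt23 separate the types in Control, and V1 stands below all other lines for Krt8 and Krt7.

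For Krt7 and Krt20, the other simple-epithelial keratins, the values of the types overlapped. Krt7, a type II chain of lung and ductal epithelium, measured 252, 161 and 338 TPM in Type D Control compared with 1.31, 224 and 546 TPM in Type V Control, so the highest and the lowest library were both Type V. Its difference was 1.87 with a 95% confidence interval from -2.41 to 6.16 (adjusted p = 0.597), and it turned to -0.54 (adjusted p = 0.624) without V1. Krt20, a type I chain of intestine and urothelium that also occurs in some neuroendocrine tumors, measured 235, 55.2 and 40.3 TPM in Type D compared with 0.0820, 59.3 and 0.256 TPM in Type V. Here V2 lay within the Type D range and the other Type V lines were below 1 TPM. The difference of 4.24 (SE 1.76) was not called (adjusted p = 0.123) without the cell line term and was called with it as a random effect (adjusted p = 0.00997).

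Krt23, a type I keratin without a firmly assigned partner, was the keratin called in all 4 type comparisons with a difference above 6. It was at 128, 25.8 and 181 TPM in Type D Control, and in Type V Control it was listed at 0 in V1 and lay at 0.346 and 0.750 TPM in the other lines. The difference was 6.01 (SE 0.79, adjusted p = 4.15e-05), and it was 6.36 in Control + CsA, 7.70 in Restored and 7.28 in Restored + CsA. All 4 of these were called, and leaving out any single line kept all 4 called. No Type V library reached 1 TPM, whereas every Type D library was at 25.8 TPM or above. Krt23 thus passed the filter through Type D alone, and its calls between the types describe the list. The 4 type comparisons use the same 6 lines and are not independent of each other.

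Krt79, a type II keratin of the hair follicle canal and sebaceous duct, measured 34.1, 38.1 and 35.8 TPM in Type D Control compared with 0.152, 25.3 and 0.0791 TPM in Type V Control. The Type D lines were tight and V2 came close to them. The difference of 3.53 (SE 1.11) was called at an adjusted p of 0.0419, but not when 1 of D1, D2, D3, V1 or V3 was left out (adjusted p of 0.158, 0.12, 0.155, 0.17 and 0.196). Krt79 belongs to a gene module that the study formed on these same samples. Krt80, a type II keratin of many differentiating epithelia, measured 73.0, 39.4 and 43.6 TPM in Type D Control compared with 30.8, 43.2 and 82.2 TPM in Type V Control. Its groups overlapped fully, with a difference of 0.06 and an interval from -0.88 to 1.01, or a difference of -0.25 without V1.

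**Figure D3:**
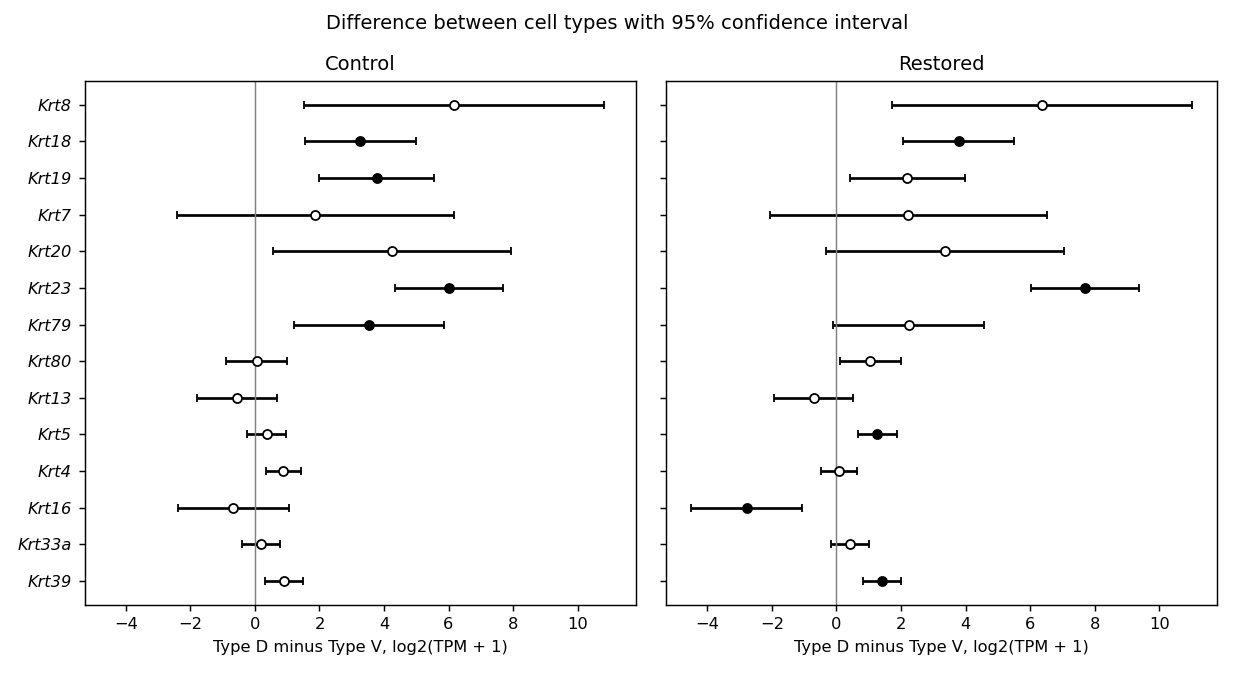
Type D minus Type V difference in log2(TPM + 1) for 14 keratins in Control (left) and Restored (right), with 95% confidence intervals, where filled points were called. Krt23 lies farthest from 0 among the called genes in both, and Krt8 has a wide interval that leaves out 0 in both without being called.

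Across the family, 4 of the 24 tested keratins were higher in Type D Control (Krt18, Krt19, Krt23 and Krt79) and 0 were lower, where 8.83% of all tested genes were called, 4.42% higher and 4.41% lower. The median difference was 0.63 over the 24 keratins and -0.12 over all tested genes. A keratin that passed the filter through 1 type alone was bound to differ, so these are descriptions of the list. The count was 1 without D1, 2 without D3 and 9 without V2. Krt18 lost its call without D1 (adjusted p = 0.0903) or D3 (adjusted p = 0.0734), and Krt19 without D1 (adjusted p = 0.0572). With cell line as a random effect the count was 6, with Krt8 and Krt20 added. In Control + CsA, 5 keratins were higher in Type D (Krt4, Krt18, Krt19, Krt23 and Krt39) and 0 were lower, against 9.88% of all genes (4.81% higher, 5.07% lower). The count was 8 with the random effect (Krt8, Krt20 and Krt79 added), 2 without D3, 9 without V2 and 3 without V3, and Krt18 lost its call without D1 (adjusted p = 0.0623) or D3 (adjusted p = 0.0593). Without V1 the counts were 5 in Control and 6 in Control + CsA, with Krt8 added as higher and Krt36 as lower in Type D. In these fits 8.8% and 9.05% of all genes were called. Here and below, refit counts printed without a share of all genes called are not read as a result about keratins. The p-values without the random effect concern the spread between these 6 lines, with the 4 libraries of a line counted as independent. With only the compared groups fitted, Krt18 and Krt79 were not called in Control. In Control + CsA that fit did not call Krt4, Krt18, Krt19 or Krt39.

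After restoration Krt16 was called higher in Type V, beside keratins higher in Type D. In Restored cells 4 keratins were higher in Type D (Krt5, Krt18, Krt23 and Krt39) and 1 was lower (Krt16), against 9.44% of all genes (4.45% higher, 4.99% lower). In Type V, Krt5 reached 1 TPM in V2 Restored alone (1.08 TPM). It thus passed the filter through Type D, and its call between the types describes the list. In Restored + CsA cells 4 were higher (Krt18, Krt23, Krt39 and Krt80) and 1 was lower (Krt16), against 7.82% (3.76% higher, 4.06% lower). The type difference of Krt19 was 2.197 (SE 0.85, adjusted p = 0.0905) in Restored cells and not called there, but was called with cell line as a random effect (adjusted p = 0.0185). The random effect added Krt8, Krt19 and Krt20 and removed Krt16 in Restored, and added Krt8 and Krt19 in Restored + CsA, for 7 calls in both. Without V1 the counts were 8 in both comparisons, with Krt8, Krt19 and Krt36 added, where 9.1% and 7.23% of all genes were called. Without V2 they were 8 and 9, Restored fell to 3 without V3, and Restored + CsA fell to 3 without D1. Krt5 lost its call in Restored without V3 (adjusted p = 0.0506), and in Restored + CsA Krt80 lost its call without D1 (adjusted p = 0.0561) or D2 (adjusted p = 0.0637) and Krt16 without D1 (adjusted p = 0.0536). Krt16, a type I keratin of injured epidermis, measured 1.03, 1.59 and 1.67 TPM in Type D Restored compared with 3.11, 39.3 and 26.7 TPM in Type V Restored. Its groups did not overlap, and the difference of -2.78 (SE 0.82) had an adjusted p of 0.0278, or 0.0503 with the random effect. Leaving out any 1 line other than V1 ended that call, with adjusted p of 0.0724 without V2 to 0.138 without D1. Krt16 shares 28.9% of its 75-base windows with other genes, chiefly Gm11597 and also Krt14, so its level is uncertain.

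Krt39 separated the types at low levels, and Krt4 did so in unrestored cells alone. Both genes reached 1 TPM in Type D libraries only. They thus passed the filter through Type D alone, and their calls between the types describe the list. Krt39, a type I hair keratin, measured 1.56, 2.10 and 2.59 TPM in Type D Restored compared with 0.174, 0.224 and 0.0515 TPM in Type V Restored. The groups did not overlap and the difference was 1.41 (SE 0.28, adjusted p = 0.00228). In Control + CsA it was 1.09 (adjusted p = 0.0128) and ended as a call without D3 (0.90) or V3 (adjusted p = 0.0803). Krt4, a type II keratin of mucosal stratified epithelium, was at 0.982, 1.21 and 2.56 TPM in Type D Control + CsA and at 0.806 TPM in V2, and was listed at 0 in the other Type V lines. Its difference of 1.04 (SE 0.27, adjusted p = 0.0125) ended as a call without V1 (adjusted p = 0.077) or V3 (adjusted p = 0.0852). In Restored cells the types overlapped for Krt4, at 0.156, 0.0750 and 0.105 TPM in Type D and 0.0653, 0.112 and 0 TPM in Type V.

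Within Type V each line had a different leading type II keratin. In V1 it was Krt80, with 91.3% of the type II sum in Control, in V2 it was Krt8 with 65.4%, and in V3 it was Krt7 with 67.4%. The same gene led in all 4 treatments of a line, whereas Krt8 led in all 12 Type D libraries with 89.9 to 96.2%. In V1 the type II sum was 33.8 TPM in Control against a type I sum of 235 TPM, mainly Krt18 and Krt19. The ratio of Krt18 to Krt8 was accordingly 126 in this library, 1.34 in V2 and 3.66 in V3, while it was 0.882, 0.86 and 0.941 in the Type D Control libraries. The hair keratins Krt35 and Krt32, both type I, were at 12.9 and 3.58 TPM in V3 Control. Krt35 lay at 8.07 to 19.4 TPM in the 4 libraries of this line and at most at 0.13 TPM in any other library. Krt32 lay at 3.22 to 6.24 TPM there and at most at 0.139 TPM elsewhere. Krt36, a further hair keratin, ranged from 5.58 to 20.8 TPM in V3, from 4.39 to 8.75 TPM in V2 and from 0.192 to 0.621 TPM in V1, and did not exceed 2.47 TPM in Type D.

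The other keratins that passed the filter stayed low. Krt10, a type I keratin of differentiated epidermis, was even across all libraries at 4.05 to 13.2 TPM. Krt14, the basal type I chain, reached at most 9.49 TPM, and in Type D it ran at 9.49, 0.106 and 7.57 TPM in Control, with D2 near 0. Krt6a reached at most 15.3 TPM, with 38.6% of its windows shared with other genes, mostly Krt6b. Krt78 reached at most 5.32 TPM, Krt15 4.79 TPM, Krt87 2.40 TPM and Krt76 2.04 TPM.

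The type II keratins of simple epithelia, Krt8 and Krt7, were lower after p53 restoration in each of the 6 lines without CsA. Under CsA they were lower in 5 of 6 lines, and in V1, at low levels, Krt8 went from 0.440 to 0.688 TPM and Krt7 from 0.358 to 2.35 TPM. Without CsA, Krt8 was lower in all 3 Type D lines, at 3765, 1677 and 2398 TPM in Restored cells, which is 0.649, 0.516 and 0.591 of its Control level. In Type V Restored it was at 0.618, 265 and 59.9 TPM, or 0.634, 0.467 and 0.334 of Control. The mean change was -0.78 in Type D and -0.98 in Type V, below the size set for a call, with adjusted p of 0.0142 and 0.00373 when cell line was fitted as a block and 0.914 and 0.888 when it was not. Krt7 measured 107, 75.4 and 179 TPM in Type D Restored compared with 1.06, 59.0 and 116 TPM in Type V Restored, lower than Control in all 6 lines. Its change was -1.08 in Type D and -1.43 in Type V, and with the block the change in Type V was called (adjusted p = 0.0373) and that in Type D was not (adjusted p = 0.104).

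The type I chains Krt18 and Krt19 gave other values. Krt18 measured 4707, 2466 and 3245 TPM in Type D Restored compared with 98.8, 367 and 391 TPM in Type V Restored. It was lower than Control in all 6 lines, by 0.18 on average in Type D (adjusted p with the block 0.402) and by 0.70 in Type V (adjusted p with the block 0.00276). Krt19 was at 3004, 2215 and 2436 TPM in Type D Restored, lower than Control in all 3 lines, and at 214, 969 and 806 TPM in Type V Restored, higher than Control in all 3 lines. The change was -0.58 in Type D and 1.00 in Type V, neither called. Under CsA the same directions held in all lines, with -0.76 in Type D and 1.20 in Type V, and the latter was called with the block (adjusted p = 0.00117) but not without (adjusted p = 0.51).

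The balance between the classes was also compared within each library. The ratio of the type I sum to the type II sum was 1.67, 1.64 and 1.80 in Type D Control and 2.08, 2.65 and 2.33 in Type D Restored. In Type V it was 6.96, 1.85 and 1.23 in Control and 15.8, 3.99 and 6.79 in Restored. It was higher after restoration in 6 of 6 lines, and also in 6 of 6 lines under CsA, where it went from 1.78 to 1.79 up to 2.14 to 2.22 in Type D and from 5.79, 1.66 and 1.08 to 23.1, 3.82 and 5.46 in Type V. In Type D the ratio of Krt18 to Krt8 alone moved from 0.86 to 0.941 in Control up to 1.25 to 1.47 in Restored libraries, without overlap. Ratios within a library do not depend on how the library was scaled. They were computed after the levels had been seen and are given without a test.

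**Figure D4:**
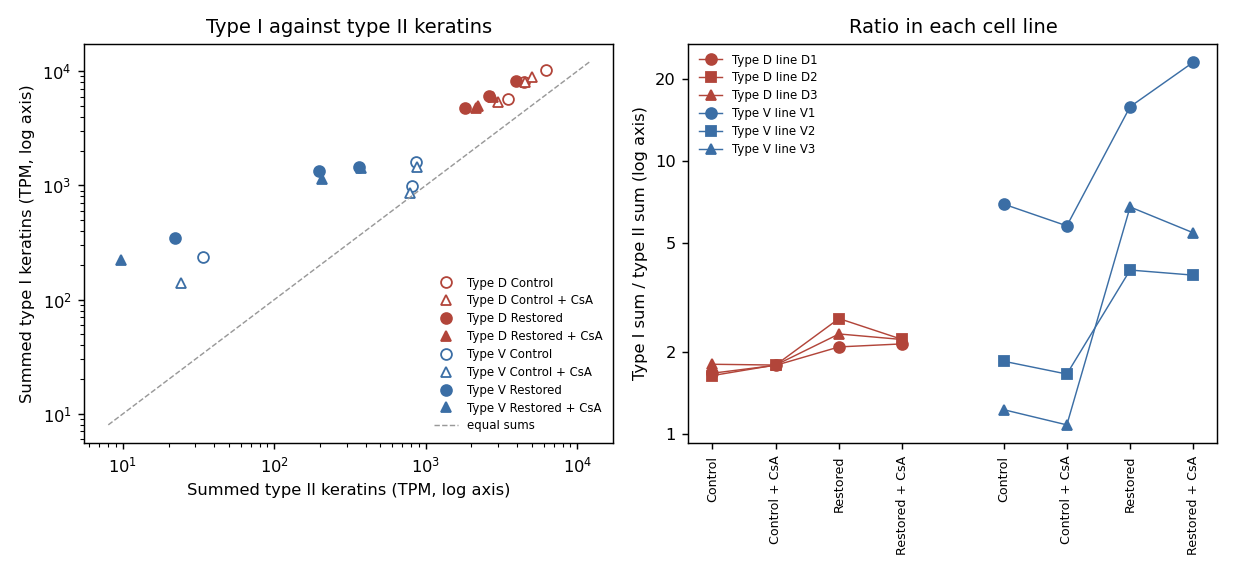
Left, summed type I against summed type II keratin TPM in each library, both on log axes (open symbols not restored, filled symbols restored, triangles CsA), with the line of equal sums. Right, the ratio of the 2 sums in each cell line across treatments (log axis), which is higher in Restored than in Control in all 6 lines.

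Without the block few keratins were called for restoration, and all of those called in the libraries without CsA rose. In Type D, 2 of 24 keratins rose (Krt5 and Krt33a) and 0 fell, where 6.93% of all tested genes were called (4.49% higher, 2.44% lower), and the median change was -0.12 over the keratins and 0.07 over all genes. Every library with Krt5 or Krt33a at 1 TPM or more was a restored one. Both genes thus passed the filter through restored libraries alone, and their calls with restoration describe the list. Krt5, the basal type II chain, measured 0.943, 0.0872 and 0.244 TPM in Type D Control compared with 3.17, 1.81 and 2.23 TPM in Type D Restored. The count in Type D was 1 without D3 and 4 without V2. The Krt5 groups did not overlap, and the rise of 1.28 (SE 0.28) had an adjusted p of 0.0047, or 0.0742 without D3. Krt33a, a type I hair keratin, measured 0.130, 0.229 and 0.533 TPM in Type D Control compared with 1.98, 3.14 and 3.20 TPM in Type D Restored. Its rise of 1.54 (SE 0.28, adjusted p = 0.000947) stayed called without any single line. In Type V Control Krt33a was listed at 0 in V1 and lay at 0.318 and 0.0988 TPM in the others, and in Type V Restored it was at 2.07, 0.854 and 2.75 TPM. It was the 1 keratin called there, with a rise of 1.29 (SE 0.28, adjusted p = 0.00509), where 5.29% of all genes were called (3.39% higher, 1.9% lower). That call ended without V1 (adjusted p = 0.0872) or V3 (adjusted p = 0.102), which left a count of 0 without V3, while the count was 2 without D2 and Krt16 was the 1 keratin called without V1. Krt33a is in a gene module that the study chose on these samples, and 11.7% of its 75-base windows are shared with other hair keratins, Krt34 among them, so its level is uncertain.

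With cell line as a block, which removes the standing differences between lines, more keratins were called. In Type D, 5 rose (Krt5, Krt6a, Krt13, Krt23 and Krt33a) and 3 fell (Krt20, Krt78 and Krt79), where 11.2% of all genes were called (7.05% higher, 4.16% lower). In Type V, 4 rose (Krt13, Krt15, Krt16 and Krt33a) and 2 fell (Krt7 and Krt80), where 8.66% were called (5.74% higher, 2.93% lower). Fitted as a random effect, the block gave 7 and 5 calls, without Krt20 in Type D and Krt7 in Type V. Krt13, a type I keratin of mucosal stratified epithelium, went from 5.23, 1.77 and 6.91 TPM to 9.01, 9.40 and 24.1 TPM in Type D and from 3.59, 12.7 and 5.92 TPM to 12.0, 16.1 and 49.8 TPM in Type V. It rose in all 6 lines, by 1.42 (block adjusted p = 0.0063) and 1.57 (block adjusted p = 0.00373), and was not called without the block (adjusted p of 0.13 and 0.104). Krt23 rose in all 3 Type D lines, to 439, 66.4 and 350 TPM, by 1.35 (block adjusted p = 1.58e-05). Without the block it was called when D2, its lowest line, was left out (adjusted p = 0.00546) and not otherwise (adjusted p = 0.317).

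Krt79 and Krt20 fell in Type D when the block was fitted. Krt79 dropped to 8.89, 4.65 and 8.97 TPM in Type D Restored, 0.261, 0.122 and 0.251 of Control, with a change of -2.17 (block adjusted p = 0.00119, or 0.239 without the block and 7.999e-05 without the block when V2 was left out). In Type V the gene was above 1 TPM in V2 alone, where it went from 25.3 to 4.33 TPM. Krt20 went to 71.3, 22.4 and 28.4 TPM in Type D Restored, a change of -1.15 (block adjusted p = 0.0039, 0.779 without the block). In V2, the Type V line that expressed it, Krt20 went from 59.3 to 33.9 TPM. Krt78, also a stratified type II keratin, went from 5.32, 1.51 and 4.37 TPM to 0.581, 0.233 and 0.911 TPM in Type D. It was called with the block, and without it when V2 was left out (adjusted p = 0.0109). Without V2, Krt78 passed the filter through unrestored Type D libraries alone, so that call describes the list. Krt4 went from 1.44, 0.811 and 1.26 TPM in Type D Control to 0.156, 0.0750 and 0.105 TPM in Restored, with a change of -0.95 (adjusted p = 0.0219) that stayed under the size set for a call.

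Krt16 and Krt80 changed in Type V when the block was fitted. Krt16 went from 0.594, 1.88 and 3.70 TPM in Type V Control to 3.11, 39.3 and 26.7 TPM in Restored. It rose in all 3 lines, with a change of 2.58 (SE 0.82, adjusted p = 0.0529, or 0.000744 with the block and 0.00144 without V1). In Type D it stayed at 0.119 to 1.83 TPM in both groups. Krt80 went from 30.8, 43.2 and 82.2 TPM to 19.8, 27.0 and 19.5 TPM in Type V, lower in all 3 lines (change -1.10, block adjusted p = 0.0101). In Type D Restored it was at 57.0, 48.5 and 35.9 TPM, within the range of Type D Control or near it. Krt15 rose in Type V by 1.13 with the block (and without it when D2 was left out, adjusted p = 0.0424), from at most 0.928 TPM in Control to 1.62, 1.95 and 4.79 TPM.

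**Figure D5:**
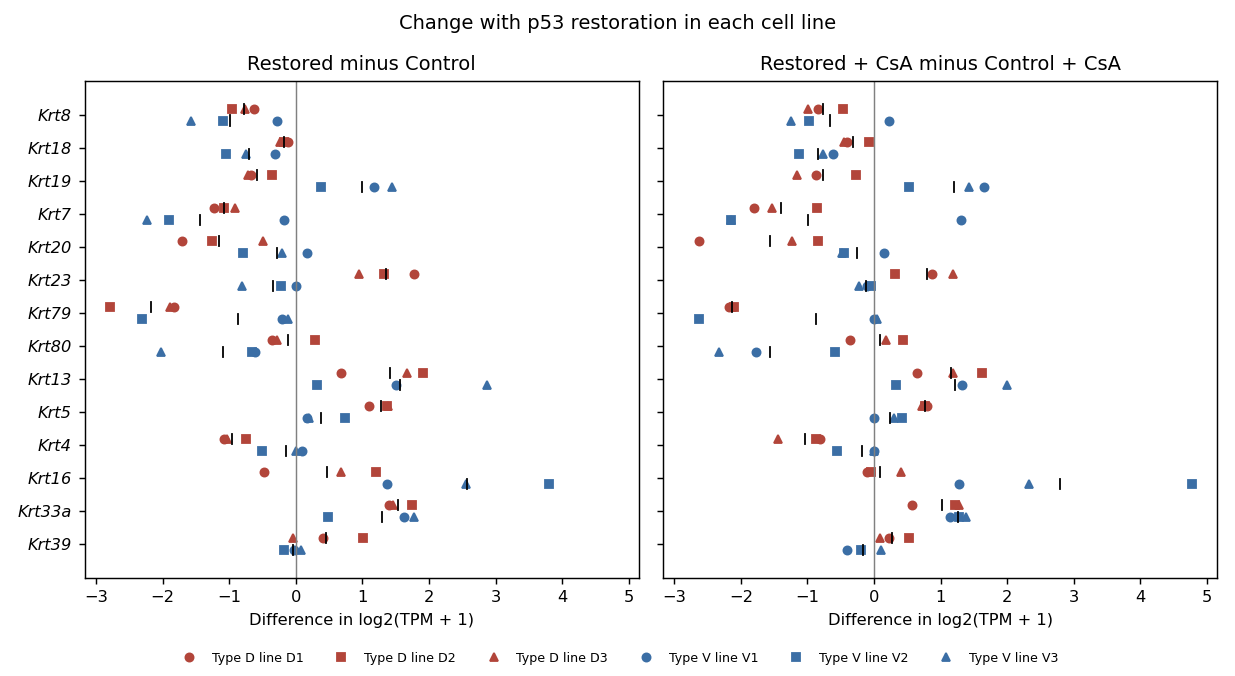
Change in log2(TPM + 1) with p53 restoration in each cell line for 14 keratins, without CsA (left) and under CsA (right); symbols are lines (red, Type D; blue, Type V) and black bars are means of 3 lines. Krt19 lies left of 0 in every Type D line and right of 0 in every Type V line in both panels, and Krt13 and Krt33a lie right of 0 in all 6 lines.

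Restoration was also compared among CsA-treated libraries, which are separate from those above but come from the same 6 lines. In Type D, 1 keratin rose (Krt33a) and 1 fell (Krt4), where 5.41% of all genes were called (3.53% higher, 1.88% lower). In Type V, 2 rose (Krt16 and Krt33a) and 1 fell (Krt80), where 4.61% were called (2.84% higher, 1.77% lower). With the block the counts were 2 higher and 5 lower in Type D (Krt13 and Krt33a against Krt4, Krt7, Krt20, Krt78 and Krt79), against 9.69% of all genes (5.91% higher, 3.78% lower), and 6 higher and 1 lower in Type V (Krt13, Krt14, Krt15, Krt16, Krt19 and Krt33a against Krt80), beside 7.97% (5.03% higher, 2.94% lower). Krt33a went to 0.483, 1.32 and 1.87 TPM in Type D Restored + CsA and to 1.36, 2.34 and 1.90 TPM in Type V Restored + CsA. Its change was 1.02 (SE 0.28, adjusted p = 0.0262) in Type D, which ended as a call without D2 (adjusted p = 0.238) or D3 (adjusted p = 0.251), and 1.26 (adjusted p = 0.00652) in Type V, which ended without V3 (adjusted p = 0.073). As above, Krt33a passed the filter through restored libraries alone.

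Krt4 was at 0.127, 0.208 and 0.316 TPM in Type D Restored + CsA, all below the 3 Control + CsA libraries. Its fall of 1.04 on the log2 scale (adjusted p = 0.0168) ended as a call without D1 (adjusted p = 0.0794) or D2 (adjusted p = 0.0917). Krt4 passed the filter through unrestored Type D libraries alone, so this call describes the list. Krt16 was at 2.44, 55.6 and 20.1 TPM in Type V Restored + CsA, against 0.422, 1.07 and 3.19 TPM in Control + CsA. Its rise of 2.79 (adjusted p = 0.0422, block adjusted p = 0.000468) and the change of Krt80, -1.56 (adjusted p = 0.0384, block adjusted p = 0.00103), both ended as calls without 1 of D1, D2, D3 or V3, and Krt16 also without V2 (adjusted p = 0.32) and Krt80 without V1 (adjusted p = 0.0803). Krt80 was at 6.06, 19.1 and 16.5 TPM in Type V Restored + CsA and at 23.1, 29.2 and 86.3 TPM in Type V Control + CsA, groups that did not overlap. The counts were 1 in Type D without D1 or D2, 0 without D3 and 4 without V2, and in Type V 1 without D1 or D3 and 0 without V3.

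CsA by itself called no keratin in any of the 4 comparisons. In unrestored cells 0 of 24 keratins were called in Type D and 0 in Type V by limma, and 0.0% of all tested genes were called in both. At an unadjusted p under 0.05 the unrestored counts were 0 and 0 keratins, beside 114 and 54 of 14104 tested genes. With the block 0 keratins were called as well, where 0.0142% and 0.0% of all genes were called. In restored cells 0 keratins were called in either type, where 0.0142% of all genes were called in Type D (all lower) and 0.0% in Type V. At an unadjusted p under 0.05 the restored counts were 2 in Type D and 0 in Type V. With the block they were again 0, where 0.128% and 0.0% of all genes were called. The 2 keratins in Type D were Krt5 and Krt33a, named after their values were seen, and both were lower with CsA in all 3 lines. Krt5 was 0.69 lower (interval of the difference -1.28 to -0.10, adjusted p = 1.0, block adjusted p = 0.0838) and Krt33a 0.80 lower (interval -1.38 to -0.21, adjusted p = 1.0, block adjusted p = 0.146).

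For abundant keratins the intervals were wide without the block, as they carry the spread between lines. Krt8 was at 4759, 2764 and 4051 TPM in Type D Control + CsA, a difference of -0.17 from Control with an interval from -4.82 to 4.47. Krt18 was at 4305, 2501 and 3546 TPM there, lower than Control in all 3 lines by 0.17 on average. Krt18 was lower with CsA in all 12 pairs of libraries, by 0.17 and 0.35 on average in unrestored Type D and Type V cells and by 0.31 and 0.49 in restored cells, and none of these differences was called. Krt23 was at 161, 36.1 and 154 TPM in Type D Control + CsA and at 296, 45.1 and 351 TPM in Type D Restored + CsA.

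Whether the types responded differently to restoration was tested as the difference between their changes. Without the block 0 keratins were called, where 0.0284% of all genes were called (0.0213% higher, 0.00709% lower), or 0.0142% under CsA (0.00709% in each direction). At an unadjusted p under 0.05 there were 2 of 24 keratins, beside 540 of 14104 tested genes. Under CsA there were 4 keratins, beside 430 tested genes. With the block 2.44% of all genes were called (1.13% higher, 1.3% lower). Krt23 (1.69, SE 0.24, adjusted p = 0.00192) was then called in the Type D direction and Krt19 (-1.58, SE 0.34, adjusted p = 0.0157) in the Type V direction. Krt23 stayed below 1 TPM in every Type V library. Its difference thus sets the Type D change against values near 0, and its call describes the list. Under CsA, where 2.32% were called with the block (0.978% higher, 1.34% lower), Krt80 was called in the Type D direction (1.65, adjusted p = 0.0423) and Krt15 (-1.57, adjusted p = 0.024), Krt16 (-2.71, adjusted p = 0.0386) and Krt19 (-1.96, adjusted p = 0.0051) in the Type V direction. Krt19 was thus the keratin called in both settings. These comparisons reuse the libraries of the restoration comparisons.

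Genes that work with keratins were taken from lists, and members other than the largest change of a list were named after their values were seen. Of 13 genes that link or organize keratin filaments, 4 were higher in Type D Control (Dsp, Ppl, Evpl and Pkp2) and 0 were lower, where 4.42% of all genes were called higher and 4.41% lower, with a median difference of 0.77 against -0.12 over all genes. The largest difference was that of Dsp, desmoplakin, which ties keratins to desmosomes. Dsp measured 92.5, 72.0 and 30.0 TPM in Type D Control compared with 2.66, 11.3 and 1.14 TPM in Type V Control, a difference of 3.70 (SE 0.81, adjusted p = 0.00464). With restoration 1 linker rose in Type D (Fam83h, by 1.26, adjusted p = 0.0017) and 2 rose in Type V (Evpl, envoplakin, by 1.62, adjusted p = 0.0403, and Fam83h), and 0 fell in either, where 6.93% and 5.29% of all genes were called. With the block 3 linkers rose in Type D and 2 in Type V, where 7.05% and 5.74% of all genes were called higher. Fam83h, which is known to organize keratin filaments, went from 49.3, 38.4 and 38.7 TPM to 107, 113 and 86.6 TPM in Type D.

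Of the 15 other intermediate filament genes, 9 were tested and 0 were called between the types in Control, where 8.83% of all genes were called. With restoration 1 rose (Synm) and 2 fell (Lmnb1 and Lmnb2) in both types, beside 6.93% of all genes called in Type D and 5.29% in Type V. With the block the counts were the same in Type D, and 2 rose and 2 fell in Type V, beside 11.2% and 8.66% of all genes. Synm, synemin, rose by 3.67 in Type D (SE 0.46, adjusted p = 1.77e-05) and by 2.97 in Type V (adjusted p = 0.000261), from 0.489 to 2.58 TPM in the 6 Control libraries to 6.11 to 33.9 TPM in the 6 Restored libraries. Lmnb1, a nuclear lamin, fell by 1.17 in Type D (adjusted p = 0.0065) and by 1.67 in Type V (adjusted p = 0.000401).

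Of 12 cornified and squamous genes, 9 were tested, 0 were higher and 2 were lower in Type D Control (Trp63 and Lor), where 4.41% of all genes were called lower. Trp63, a master regulator of basal epithelial cells, was at 25.3, 9.68 and 3.89 TPM in Type V Control and at most at 0.124 TPM in Type D Control, a difference of -3.34 (SE 0.76, adjusted p = 0.00619). It reached 1 TPM in Type V libraries only and thus passed the filter through Type V alone. Lor reached 1 TPM in every Type V library and, in Type D, in D1 alone. The calls of both genes between the types describe the list. The basal keratins Krt5 and Krt14 did not exceed 6.42 TPM in any Type V library. Ivl, involucrin, rose with restoration in Type D by 3.25 (adjusted p = 0.0142), the 1 gene of the list called there, beside 6.93% of all genes, and 0 were called in Type V. With the block 3 of the list rose in Type D and 2 in Type V, beside 11.2% and 8.66% of all genes. Of 14 epithelial regulators, 12 were tested, 3 were higher in Type D Control (Klf4, Gata6 and Klf5) and 0 were lower, where 4.42% of all genes were called higher. Klf4 was at 308, 179 and 115 TPM against 25.6, 48.7 and 29.7 TPM, a difference of 2.44 (SE 0.45, adjusted p = 0.0012). With restoration 2 of the list rose in Type V (Grhl1, by 1.65, adjusted p = 0.0486, and Klf4) and 0 were called in Type D, beside 5.29% and 6.93% of all genes. With the block 3 rose in Type V, and 1 rose and 2 fell in Type D, beside 8.66% and 11.2% of all genes.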

How the data were processed

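The authors deposited 1 table of TPM values (transcript abundance per length, scaled to the same sum in each library) from RNA-seq of the 24 libraries. The submitters' processing notes name HISAT2, mm10 and GRCm39. The tool that made the TPM values and the build behind them are not certain from the sources used here, and sequencing depth is unknown from TPM. Groups came from the sample labels. The whole table was fitted with limma 3.58.1 in R 4.3.3 on log2(TPM + 1), which understates changes of low genes, with 8 group means, an intensity trend and two-sided tests, for 14 comparisons. Adjusted p-values are Benjamini-Hochberg values over 14104 genes with at least 1 TPM in at least 3 libraries. The script was tested on simulated data. Keratins with a mean of at least 10 TPM in any group, or called in any comparison, were described by library (14 genes), and others by range or count. The keratins and gene lists were chosen with earlier results of these data known. Libraries of 1 cell line deviated together from their group means (r of 0.599 to 0.929 over 36 pairs, against -0.675 to 0.0438 over 72 pairs of different lines of a type), so cell line, which the labels give, was fitted as a block. The alternatives also covered the pseudocount, filter, scaling, samples fitted and each line left out. Some marker genes are not reported here.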

Additional observations from a re-analysis of the deposited data

Results flagged for a closer look

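The response to p53 restoration differed between the types at an adjusted p under 0.05 for Krt23, Krt19 and Krt5 when cell line was a block in the limma fit, although the difference of Krt5 was under the size of 1 set for a call, as was that of Krt23 under CsA. The Type D change minus the Type V change was 1.69 for Krt23 (block adjusted p = 0.00192), -1.58 for Krt19 (block adjusted p = 0.0157) and 0.91 for Krt5 (block adjusted p = 0.0317). Krt23 stayed below 1 TPM in every Type V library, so its differences here set Type D changes against values near 0. Under CsA the difference was 1.65 for Krt80 (block adjusted p = 0.0423), 0.92 for Krt23 (block adjusted p = 0.0428), -1.96 for Krt19 (block adjusted p = 0.0051), -2.71 for Krt16 (block adjusted p = 0.0386) and -1.57 for Krt15 (block adjusted p = 0.024). Without the block none of these differences passed the test at the adjusted threshold. Krt19 was lower after restoration in 3 of 3 Type D lines and higher in 3 of 3 Type V lines, with a mean difference of -1.58, and under CsA of -1.96. Krt23 under CsA was higher in 3 of 3 Type D lines and lower in 3 of 3 Type V lines (0.92), although its Type V levels stayed below 1 TPM. Krt33a was lower with CsA in unrestored cells in 3 of 3 Type D lines and higher in 3 of 3 Type V lines (-0.34), at levels below 1 TPM, and this difference between the types was not tested.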

How the results depend on the processing

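No called keratin difference changed direction under any alternative that was run, while 2 type differences in Control that were not called did so without V1, Krt7 (-0.54) and Krt80 (-0.25). Counts of called keratins are given in the order Control, Control + CsA, Restored and Restored + CsA for the type comparisons (4, 5, 5 and 5), and Type D, Type V, Type D under CsA and Type V under CsA for restoration (2, 1, 2 and 3). Fits of the compared groups alone gave 2, 1, 3 and 3 for the types and 0 in Type V, 1 in Type D under CsA and 0 in Type V under CsA for restoration. Between the types, these fits ended the calls of Krt5 and Krt16 in Restored and of Krt16 and Krt80 in Restored + CsA. A TPM minimum of 5, which tests fewer genes, gave 3 in Control + CsA and 3 in Restored, and 0 for restoration in Type D, in Type V and in Type D under CsA. With a replicate block, cell line as a fixed effect, restoration gave 8, 6, 7 and 7 calls, and the difference in response 2, or 4 under CsA, in place of 0. As a random effect the replicate block gave 8 in Control + CsA, 7, 5, 6 and 7 for restoration, and again 2 and 4. For restoration under CsA the random effect called Krt4, Krt13, Krt20, Krt33a, Krt78 and Krt79 in Type D, without Krt7. In Type V under CsA, and for the difference in response, it called the same keratins as the fixed effect. The other keratin calls it moved are given beside the results. A pseudocount of 0.1 gave 1 for restoration in Type D and 1 under CsA, quantile normalization 4 in Type D, median-ratio scaling 1 in Type D under CsA, and no filter 1 in Type V under CsA. Leaving out 1 line at a time gave 1 to 9, 2 to 9, 3 to 8 and 3 to 9 calls between the types and 1 to 4, 0 to 2, 0 to 4 and 0 to 2 with restoration. For CsA the count was 0 under each alternative. Causes were not tested beyond the fewer genes or samples that an alternative holds.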
